A study of Homo sapiens with 12 samples.

Results

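SR proteins and heterogeneous nuclear ribonucleoproteins (hnRNPs) are the 2 large families of RNA-binding proteins that set which exons a cell keeps. Their transcripts were followed in HEK293 Flp-In cells, derived from human embryonic kidney and carrying a defined landing site for a transgene, in which TAF5 had been depleted and then resupplied in either of 2 forms. The genes were chosen by a rule on names and not on values, but with earlier results of these data known. The rule took protein-coding entries of the deposited gene table called SRSF plus a number or HNRNP plus a letter. It also took TRA2A, TRA2B, PTBP1, PTBP2, SRRM1 and SRRM2. This gave 43 of 32010 genes, of which 27 were hnRNP or PTB genes and 16 were SR, TRA2 or SRRM genes. HNRNPCL3 had at most 1 count in a library and was not tested, which left 42 among 19424 tested genes.

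The data are 12 polyadenylated RNA libraries in 4 groups of 3. A non-targeting siRNA was given to the siNT cells and a single siRNA against TAF5 to the siTAF5 cells; TAF5 is a subunit of the promoter-binding complex TFIID. In the FL and ΔE8 cells the TAF5 siRNA was followed by a transgene that it does not target, full-length TAF5 (siTAF5+TAF5-FL) or TAF5 without exon 8 (siTAF5+TAF5-DE8), induced by doxycycline that was added after 24 h and left for 48 h. The labels list siRNA and doxycycline for every sample, and do not say whether the siNT and siTAF5 cells carried a transgene. A doxycycline schedule is given only for FL and ΔE8. When these are set against siTAF5 or siNT, supplied TAF5, doxycycline schedule and a possible difference in cell line cannot be told apart. The doxycycline dose also differed between FL and ΔE8. Its notation in the labels is not clear, so none is printed, and dose and TAF5 form cannot be told apart. Nothing in the labels says that the replicates were separate cultures, and the p-values therefore rest on a spread among libraries that may be technical.

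SR proteins carry RNA recognition motifs and a tail rich in arginine and serine. Bound to exonic enhancers, they recruit the spliceosome and favour inclusion of the exon. Many hnRNPs, and the related polypyrimidine tract binding proteins PTBP1 and PTBP2, bind silencers and oppose inclusion, and they also act in mRNA stability, export and chromatin organisation. Members of both families commonly limit their own output by switching their transcripts to isoforms that are destroyed by nonsense-mediated decay. Counts per gene, as used here, add productive and unproductive isoforms together.

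Promoter sequence is shown for 5 genes that stand for the patterns described below, picked after their values were known. HNRNPDL fell on depletion and rose with FL. HNRNPM and SRSF6 were above siNT in the other 3 groups, SRSF3 moved with the transgenes, and HNRNPAB was higher in ΔE8 than in FL. Each line gives 120 bases that end just before the RefSeq start of the gene (GRCh38.p14), 5′ to 3′ on the gene's strand, with matches to the searched strings in capitals.
HNRNPDL, chr4:82430226-82430345, minus strand: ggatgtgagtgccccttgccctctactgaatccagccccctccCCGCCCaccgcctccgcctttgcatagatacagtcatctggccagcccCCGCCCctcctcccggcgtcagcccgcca
HNRNPM, chr19:8444855-8444974, plus strand: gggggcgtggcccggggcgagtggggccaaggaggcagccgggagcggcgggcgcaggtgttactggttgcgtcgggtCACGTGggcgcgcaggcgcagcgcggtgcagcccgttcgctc
SRSF6, chr20:43457776-43457895, plus strand: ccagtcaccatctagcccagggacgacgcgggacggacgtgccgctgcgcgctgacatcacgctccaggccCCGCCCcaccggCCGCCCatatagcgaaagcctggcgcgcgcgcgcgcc
SRSF3, chr6:36594242-36594361, plus strand: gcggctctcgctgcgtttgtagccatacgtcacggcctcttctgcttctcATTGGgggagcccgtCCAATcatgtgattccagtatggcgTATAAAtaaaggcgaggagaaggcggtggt
HNRNPAB, chr5:178204413-178204532, plus strand: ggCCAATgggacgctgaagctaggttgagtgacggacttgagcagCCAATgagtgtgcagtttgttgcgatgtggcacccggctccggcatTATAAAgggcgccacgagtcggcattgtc

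Strings were searched on both strands over 300 bases, 250 before and 50 after the start, and no matches overlap in the stretches shown. TATAAA is the core of the TATA box, which the TBP subunit of TFIID contacts. CCAAT is the box bound by NF-Y, GGGCGG the GC box of Sp family factors, CACGTG the E-box and CCGGAAG an ETS family string. CCGCCC and ATTGG are the GC box and the NF-Y box read from the opposite strand. SRSF3 holds TATAAA 30 bases and HNRNPAB 29 bases upstream of the start. RefSeq promoters were found for 38 of the 43 genes, all except HNRNPA1, HNRNPA1P48, HNRNPCL3, SRSF2 and TRA2A. TATAAA occurred anywhere in the 300 bases in 5 of the 38 (13.2%), against 11.5% of 35116 RefSeq promoters of the same length. Besides SRSF3 and HNRNPAB these were HNRNPC (at -184), HNRNPD (-126) and SRSF11 (-206, opposite strand), where the string lies much further upstream. The shares were 50% against 34.6% for CCAAT, 68.4% against 45% for GGGCGG, 13.2% against 10.3% for CCGGAAG, and 18.4% against 7.26% for CACGTG. HNRNPUL2 and HNRNPUL2-BSCL2 start close together and count as separate promoters, so they share sites. CCAAT lies at -46 of the first and -119 of the second, and GGGCGG at -26 and -99. The RefSeq promoters were not limited to genes expressed in these cells. The 7 genes with CACGTG were HNRNPA3, HNRNPD, HNRNPDL, HNRNPH2, HNRNPH3, HNRNPM and HNRNPUL1. RefSeq start and the start of the gene in the deposited table differ by 237 bases for HNRNPDL, 208 for HNRNPM, 9 for SRSF3 and 3 for SRSF6.

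Library totals ran from 41.8 to 62.5 M estimated counts. TAF5 checked the labels: its level was 39.17 to 40.5 CPM (counts per M counts of a library, M being the SI mega, after scaling between libraries) in siNT, 6.131 to 7.354 in siTAF5, 102.6 to 107.4 in FL and 87.49 to 88.86 in ΔE8. Since exon 8 is not resolved by counts per gene, these levels leave unchecked whether FL and ΔE8 are labelled the right way round. Of 7 markers of HEK293 cells all were detected, led by VIM at 1067 to 1551 CPM and NEFL at 247.7 to 371.2 CPM, and 5 of the 7 fell and 2 rose in siTAF5 against siNT. Of 11 markers of fibroblasts, blood cells and hepatocytes, 10 stayed at or below 0.4926 CPM (the maximum being that of CD14), with TTR at 0 in every library. The other was COL1A1, at 13.56 to 13.9 CPM in siNT and 6.635 to 8.772 CPM elsewhere, and its part in the results was not tested. In bulk RNA, fewer cells of a state and less RNA per cell cannot be told apart. The labels name no spike-in, so each difference is relative to the bulk of genes, whose median log2 difference lay between -0.0114 and 0.00618 in the 6 comparisons.

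Levels of the 43 genes spanned several orders of magnitude. Per kilobase of merged exons and in siNT, HNRNPA1, the best known splicing repressor of the family, stood first at 433 CPM per kb. It was followed by HNRNPAB (214), HNRNPA2B1 (182), the C-tract binding HNRNPK (177), the U-tract binding HNRNPC (137) and the G-run binding HNRNPF (130). The order depends on the merged length, which spans all annotated exons, from 2144 bases in HNRNPAB to 22512 in HNRNPU. In CPM alone, HNRNPA2B1 (1685) and HNRNPU (1039) stood above HNRNPAB (460). SRSF1, the prototype SR protein, was the highest of its family at 123 CPM per kb, ahead of SRSF2 (101). The neural paralogue PTBP2 had 2.04 CPM per kb against 92.4 for PTBP1, and HNRNPCL1 had 0.600. Some entries can share reads with near-identical copies: 46 table entries named as HNRNPA1 pseudogenes, HNRNPA1P48 among them, summed to 50.1 CPM, 2.56% of the HNRNPA1 level. For HNRNPC that share was 1.11%, and for the other genes with such entries it was 0.671% or less. HNRNPA1L2, HNRNPA1P48, HNRNPCL1 and the readthrough entry HNRNPUL2-BSCL2, which spans HNRNPUL2, are therefore uncertain on their own. Leaving these 4 out, a choice made after seeing the data, changed no count below by more than 3 genes.

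The comparison of siTAF5 with siNT followed TAF5 depletion. With a single siRNA, loss of TAF5 and other effects of that siRNA cannot be told apart. In siTAF5 16 of the 42 tested genes were lower and 10 higher, while 16 were not called (edgeR quasi-likelihood test, Benjamini-Hochberg adjusted p under 0.05 over all genes). Among all 19424 genes tested, 24.7% were higher and 25% lower. The share of splicing regulators that rose (23.8%) lay near that background and the share that fell (38.1%) above it. With scaling by library totals alone, 13 of the 42 were higher and 14 lower, and their median log2 difference moved from -0.04 to -0.007. The split of all called genes then moved from 49.8% to 57.8% higher. Here and below, the background was not matched to the 42 genes in level, and genes with few counts are called less readily. The families differed in their counts: 13 of 26 hnRNP and PTB genes fell and 6 rose (median log2 difference -0.09), while 3 of 16 SR, TRA2 and SRRM genes fell and 4 rose (median 0.02). The SR median changed sign to -0.000704 with upper-quartile scaling. The difference between the families was not tested.

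HNRNPA1, HNRNPA2B1, HNRNPA3, HNRNPD and HNRNPDL fell, while their relatives HNRNPAB and HNRNPA0 rose and HNRNPA1L2 was not called. HNRNPA1 (ENSG00000135486, chromosome 12, 54280193 to 54287088, hg38 here and below) measured 2176, 2187 and 2246 CPM in the siNT libraries and 1720, 1709 and 1647 CPM in siTAF5. Every siTAF5 library was below every siNT library, and the level fell 1.30-fold (log2 -0.38, SE 0.026, edgeR adjusted p = 3.81e-10). HNRNPA1P48 (ENSG00000224578, chromosome 16, 51553436 to 51647132), named as an HNRNPA1 pseudogene but annotated as protein coding, went from 35.09, 33.42 and 32.47 CPM to 27.14, 24.77 and 23.77 CPM, a fall of 1.34-fold (adjusted p = 3.56e-07), and whether its reads come from HNRNPA1 was not tested. HNRNPDL (ENSG00000152795, chromosome 4, 82422565 to 82430462), a paralogue of the mRNA decay factor HNRNPD, had 282.6, 286.3 and 300.9 CPM in siNT against 228.1, 228.2 and 232.3 in siTAF5. The siTAF5 values lie within 5 CPM of each other and well under siNT, a 1.26-fold fall (log2 -0.34, SE 0.029, adjusted p = 9.84e-09). HNRNPA3 fell by 0.32 on the log2 scale, HNRNPR, a relative of the mRNA-binding SYNCRIP, by 0.26, HNRNPA2B1 by 0.24 and HNRNPD by 0.22.

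Other falling hnRNP genes were HNRNPC (log2 -0.18), the CA-repeat binding HNRNPL (-0.13), HNRNPF (-0.10) and HNRNPUL1 (-0.07). Both PTB genes fell. PTBP1, a general repressor of exons next to pyrimidine tracts, went from 636 ± 16.1 to 543 ± 3.90 CPM (mean ± SD, n = 3 here and below; log2 -0.23, edgeR adjusted p = 3.42e-08). PTBP2 (ENSG00000117569, chromosome 1, 96721665 to 96823738) had 26.44, 26.08 and 26.61 CPM in siNT and 19.91, 19.55 and 20.35 CPM in siTAF5, with no overlap. Its fall of 1.32-fold (log2 -0.40, SE 0.043, adjusted p = 1.5e-07) was among the 3 largest here. In the SR family SRSF12, SRSF4 and SRRM2 fell. SRSF12 (ENSG00000154548, chromosome 6, 89095959 to 89118071) was nearly the same in all siNT libraries at 24.95, 25.04 and 25.08 CPM, and lower in siTAF5 at 20.18, 20.29 and 17.97 CPM (1.29-fold, log2 -0.36, SE 0.052, adjusted p = 7.85e-06). SRSF4 went from 209 ± 3.76 to 179 ± 3.79 CPM (log2 -0.23, adjusted p = 9.82e-07). SRRM2, a core protein of nuclear speckles, fell by only 0.09 on the log2 scale (adjusted p = 0.0186), a call lost without siNT replicate 2 (log2 -0.08, adjusted p = 0.0647).

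SRSF6, HNRNPU and SRSF5 had the largest rises. SRSF6 (ENSG00000124193, chromosome 20, 43457893 to 43466046), an exonic enhancer binding SR protein, measured 107.3, 117.3 and 115.8 CPM in siNT and 134.1, 141.5 and 149.7 CPM in siTAF5. The groups did not overlap and the log2 difference was 0.32 (SE 0.041, edgeR adjusted p = 1.73e-06). HNRNPU (ENSG00000153187, chromosome 1, 244840638 to 244864560), also called scaffold attachment factor A for its binding to chromatin, rose from 1020, 1062 and 1034 CPM to 1257, 1257 and 1267 CPM. This 1.21-fold rise (log2 0.28, SE 0.02, adjusted p = 9.68e-10) came with siTAF5 libraries that were closer together than those of siNT. SRSF5 (ENSG00000100650, chromosome 14, 69726900 to 69772005) had 65.74, 72.95 and 74.12 CPM in siNT and 82.82, 87.43 and 86.76 CPM in siTAF5 (1.21-fold, log2 0.27, SE 0.039, adjusted p = 7.35e-06), again without overlap. The GU-repeat binding HNRNPM (log2 0.21), SRSF11 (0.15), HNRNPLL (0.14), HNRNPAB (0.13), SRSF2 (0.10), HNRNPH2 (0.10) and HNRNPA0 (0.10) also rose. The changes were small: 5 genes fell and 0 rose by a ratio of at least 5 to 4, against 10.2% and 10.1% of all genes, with SRSF6 just under that ratio. Scaling by library totals alone ended the calls of SRRM2 and HNRNPUL1.

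**Figure D1:**
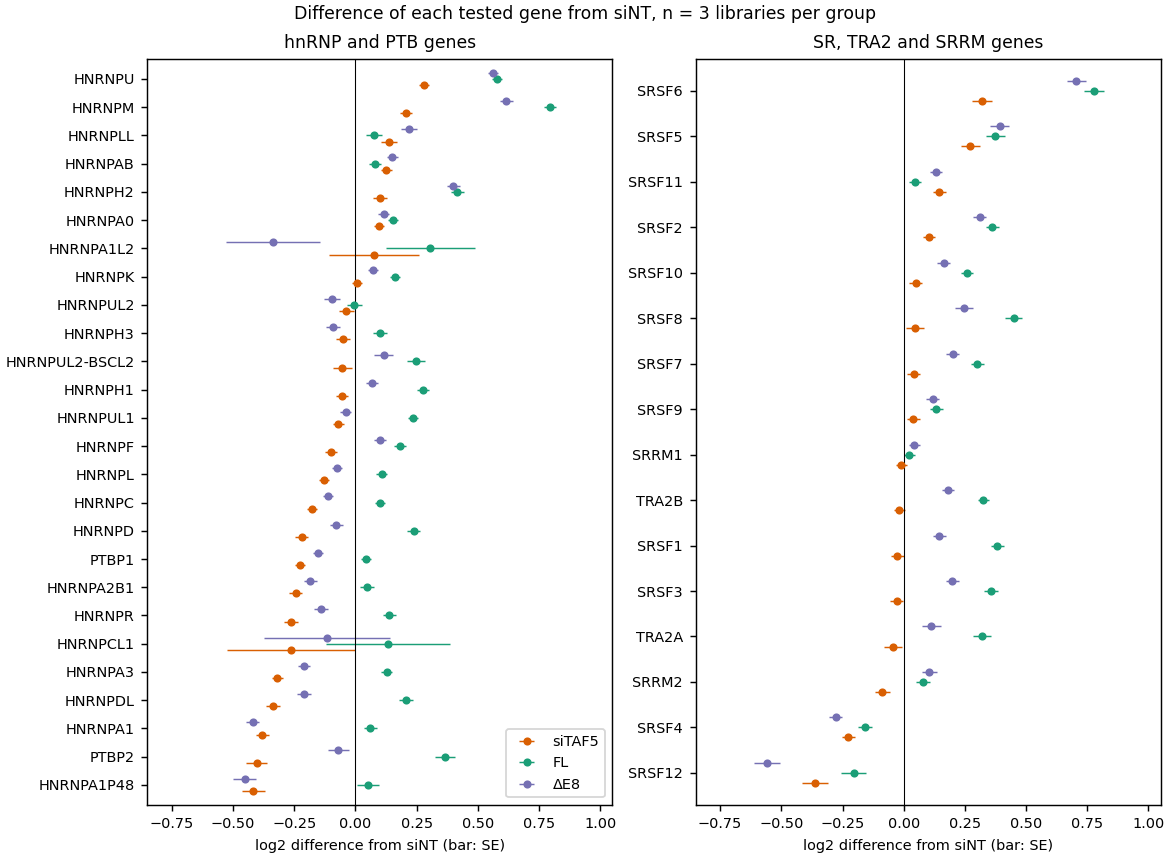
Log2 difference from siNT (x axis, bars are SE) of the 42 tested genes in siTAF5, FL and ΔE8, with n = 3 libraries per group and genes ordered by their siTAF5 value; the siNT libraries are shared by the 3 values of a gene. Most hnRNP points of siTAF5 lie left of 0 down to -0.42, while those of FL reach 0.80 in HNRNPM, and the wide bars belong to the low-count genes HNRNPA1L2 and HNRNPCL1.

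FL against siTAF5 compares cells supplied with full-length TAF5 after depletion with depleted cells, which may also differ in doxycycline schedule and cell line. TAF5 counts were not returned to their siNT level: they stood 2.63-fold above siNT in FL and 2.2-fold above it in ΔE8. The part of this excess in the differences was not tested. In FL 35 of the 42 genes were higher, 1 was lower (SRSF11) and 6 were not called, with a median log2 difference of 0.29. Among all genes 24.4% were higher and 24.4% were lower. Scaling by library totals alone moved that split of all called genes from 50.1% to 39.3% higher, and the median of the 42 to 0.24. Of the hnRNP and PTB genes 21 of 26 rose and 0 fell (median 0.30), and of the SR, TRA2 and SRRM genes 14 of 16 rose and 1 fell (median 0.24). The rise reached a ratio of 5 to 4 in 15 genes, against 7.91% of all genes, and no gene fell that far, against 11.7%. The siTAF5 libraries are the same ones as in the comparison with siNT.

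PTBP2 had the largest rise. It measured 32.88, 33.56 and 35.8 CPM in FL, above every siTAF5 library (19.55 to 20.35 CPM) and also above every siNT library, a rise of 1.71-fold (log2 0.77, SE 0.042, edgeR adjusted p = 1.66e-11). HNRNPM (ENSG00000099783, chromosome 19, 8444767 to 8489114) had 332.8, 348.7 and 335.5 CPM in siNT, 396.9, 384.9 and 392 CPM in siTAF5 and 587.4, 573.2 and 605 CPM in FL. It thus had risen on depletion and rose further with FL (log2 0.59 over siTAF5, SE 0.025, adjusted p = 5.34e-13). HNRNPDL reached 334.1, 327.4 and 341.6 CPM in FL, 1.46-fold above siTAF5 (log2 0.54, SE 0.029, adjusted p = 1.34e-11). HNRNPA1 reached 2379, 2235 and 2279 CPM, a rise of 1.36-fold (log2 0.44, SE 0.026, adjusted p = 4.34e-11) that placed 2 of its 3 FL libraries above the highest siNT library.

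Other hnRNP genes followed with log2 differences of 0.46 (HNRNPD), 0.45 (HNRNPA3), 0.40 (HNRNPR), 0.33 (HNRNPH1), 0.31 (HNRNPH2), 0.30 (HNRNPUL1), 0.30 (HNRNPU), 0.29 (HNRNPA2B1), 0.28 (HNRNPF), 0.28 (HNRNPC) and 0.27 (PTBP1). In the SR family, genes that had not been called on depletion now rose. SRSF1 went from 404 ± 1.08 CPM in siTAF5 to 537 ± 19.5 CPM in FL (log2 0.41, SE 0.026, edgeR adjusted p = 1.51e-10), SRSF3, an SR protein that also serves mRNA export, from 367 ± 0.893 to 480 ± 19.5 CPM (log2 0.39, adjusted p = 4.69e-10), and SRSF8 by 0.40. TRA2A and TRA2B, which bind GAA-rich enhancers, rose by 0.36 and 0.34 on the log2 scale. SRSF6 reached 186.1, 194.8 and 203.9 CPM (log2 0.46, SE 0.04, adjusted p = 1.15e-08), so its 3 FL libraries lay above all libraries of siTAF5 and siNT.

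SRSF11 (ENSG00000116754, chromosome 1, 70205682 to 70253052) was the gene that fell with FL. Its levels were 224.5, 231.9 and 239.2 CPM in siNT, 253.8, 259.4 and 256.6 CPM in siTAF5 and 240.4, 235.2 and 242.5 CPM in FL (log2 -0.10, SE 0.025, edgeR adjusted p = 0.00214). FL therefore lay between siNT and siTAF5 for this gene and overlapped siNT. The 6 genes not called were HNRNPA1L2, HNRNPAB, HNRNPCL1, HNRNPLL, HNRNPUL2 and SRRM1. With library totals HNRNPAB (log2 -0.09, adjusted p = 0.00132) and HNRNPLL (-0.11, adjusted p = 0.00841) passed as lower, and HNRNPAB did so also with upper-quartile factors (-0.06, adjusted p = 0.0294). Calls of HNRNPA0 (log2 0.06), SRSF4 (0.07), SRSF5 (0.10) and SRSF12 (0.16) were each lost without at least 1 library of either group, with adjusted p from 0.0507 to 0.298. The highest p belongs to SRSF4 without FL replicate 1 (log2 0.04), and the lowest value of SRSF12, 0.10, came without siTAF5 replicate 3 (adjusted p = 0.143). Without FL replicate 1 HNRNPA0 had log2 0.04 (adjusted p = 0.149), and without siTAF5 replicate 1 SRSF5 had 0.08 (adjusted p = 0.142). Upper-quartile scaling ended the calls of HNRNPA0, SRSF4 and SRSF5, and library totals those of the same 3 genes and of SRSF9 and SRSF12.

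**Figure D2:**
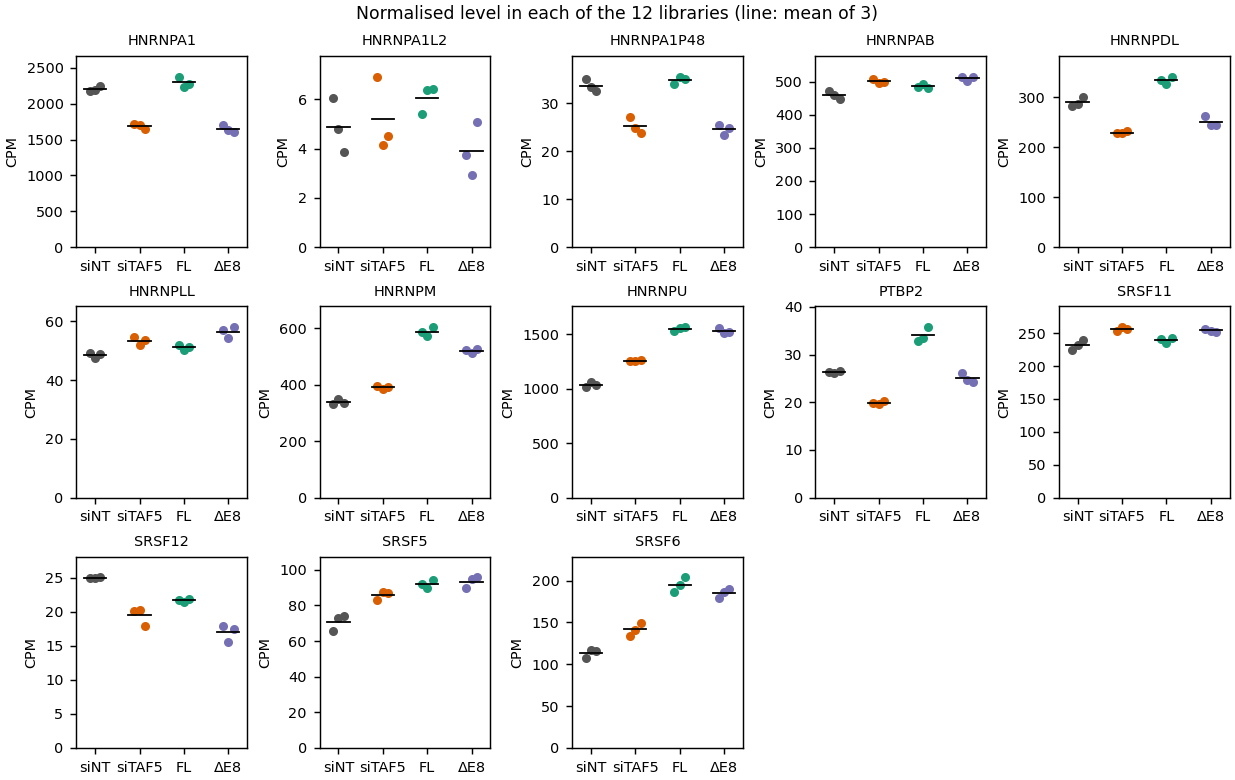
CPM (y axis, from 0) of 13 genes in each of the 12 libraries, by group, with the mean of 3 as a line. HNRNPA1 and HNRNPA1P48 are low in siTAF5 and ΔE8 and high in siNT and FL, while SRSF6, HNRNPU and HNRNPM are lowest in siNT.

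Resupply of TAF5 without exon 8, ΔE8 against siTAF5, gave smaller differences. In ΔE8 27 of the 42 genes were higher, 1 was lower (SRSF12) and 14 were not called, with a median log2 difference of 0.12. Among all genes 20% were higher and 20.6% lower. The median was 0.08 for hnRNP and PTB genes (15 of 26 higher, 0 lower) and 0.16 for SR, TRA2 and SRRM genes (12 of 16 higher, 1 lower). Of the 42, HNRNPM, SRSF6 and PTBP2 rose by a ratio of at least 5 to 4, which 3.3% of all genes did upward and 8.57% downward.

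HNRNPM reached 522.6, 512.2 and 525.3 CPM in ΔE8, above all siTAF5 and siNT libraries (1.33-fold over siTAF5, log2 0.41, SE 0.025, edgeR adjusted p = 5.05e-10). SRSF6 reached 179.3, 186.7 and 189.7 CPM (1.30-fold, log2 0.38, SE 0.04, adjusted p = 3.57e-07). PTBP2 reached 26.24, 24.69 and 24.33 CPM, which overlapped its siNT libraries (1.26-fold over siTAF5, log2 0.33, SE 0.043, adjusted p = 4.4e-06). HNRNPU had 1559, 1517 and 1524 CPM, 1.22-fold above siTAF5 (log2 0.28, adjusted p = 4.29e-09). HNRNPH2, an X-linked G-run binding protein, rose by 0.30, SRSF3 by 0.23, SRSF2 by 0.21, HNRNPF by 0.20 and SRSF8 by 0.20.

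HNRNPA1 did not pass the test. Its ΔE8 libraries at 1702, 1635 and 1602 CPM overlapped those of siTAF5, with a log2 difference of -0.04 (SE 0.026, edgeR adjusted p = 0.247). With upper-quartile factors it passed as lower (log2 -0.07, adjusted p = 0.0371), as it did with library totals (-0.06, adjusted p = 0.0431). HNRNPA2B1 (0.06, adjusted p = 0.0927), HNRNPL (0.05, adjusted p = 0.0627) and HNRNPUL1 (0.03, adjusted p = 0.317) were not called either. HNRNPDL had 261.9, 244.6 and 245.6 CPM, above siTAF5 by 0.13 on the log2 scale (SE 0.029, adjusted p = 0.00159), and HNRNPA3 and HNRNPD rose by 0.11 and 0.14. SRSF12 was the gene that fell, at 17.99, 15.53 and 17.54 CPM, with libraries that overlapped those of siTAF5 (log2 -0.19, SE 0.055, adjusted p = 0.00777). That call was lost without ΔE8 replicate 2 (log2 -0.12, adjusted p = 0.0936), siTAF5 replicate 1 (-0.16, adjusted p = 0.0504) or siTAF5 replicate 2 (-0.15, adjusted p = 0.0651), and the count of lower genes ranged from 0 to 2 when 1 library was left out. It was 4 with upper-quartile factors or library totals. HNRNPLL (0.08), SRSF5 (0.12) and SRSF9 (0.08) also hung on single libraries, with adjusted p up to 0.125 for HNRNPLL without siTAF5 replicate 2 (0.07), 0.0597 for SRSF5 without siTAF5 replicate 1 (0.11) and 0.0582 for SRSF9 without siTAF5 replicate 2 (0.07). Upper-quartile scaling ended the calls of HNRNPC, HNRNPK, PTBP1, HNRNPLL, SRSF5 and SRSF9.

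ΔE8 against FL compares the 2 transgene groups, which differed in the form of TAF5 and also in doxycycline dose. In ΔE8, 29 of the 42 genes were lower than in FL, 3 were higher and 10 were not called, with a median log2 difference of -0.17. Among all genes 17.3% were higher and 19.7% lower. In the hnRNP and PTB group 20 of 26 were lower and 2 higher (median -0.20), and in the SR, TRA2 and SRRM group 9 of 16 were lower and 1 higher (median -0.10). By a ratio of at least 5 to 4, 7 genes were lower and 0 higher, against 5.88% and 5.22% of all genes. TAF5 transcript was itself lower in ΔE8 than in FL (log2 -0.26, edgeR adjusted p = 2.12e-06), and its part in these differences was not tested.

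HNRNPA1 differed clearly, with 1602 to 1702 CPM in ΔE8 and 2235 to 2379 CPM in FL (1.40-fold lower, log2 -0.48, SE 0.026, edgeR adjusted p = 3.99e-11). HNRNPA1P48 had 25.44, 23.37 and 24.93 CPM in ΔE8 and 34.01, 35.55 and 35.12 CPM in FL (log2 -0.50, adjusted p = 8.94e-08), again in the direction of HNRNPA1. PTBP2 was 1.35-fold lower (log2 -0.44, SE 0.041, adjusted p = 8.12e-08), with 24.33 to 26.24 CPM in ΔE8 against 32.88 to 35.8 CPM in FL. HNRNPDL was 1.33-fold lower (log2 -0.42, adjusted p = 1.52e-09) and SRSF12 1.28-fold lower (log2 -0.35, adjusted p = 3.86e-05). None of these 5 genes had overlapping libraries. HNRNPA3 (-0.34), HNRNPD (-0.32), HNRNPR (-0.28), HNRNPUL1 (-0.28), SRSF1 (-0.24), HNRNPA2B1 (-0.23), HNRNPC (-0.21), HNRNPH1 (-0.21), TRA2A (-0.20), SRSF8 (-0.20) and PTBP1 (-0.20) were lower by smaller amounts.

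HNRNPA1L2 (ENSG00000139675, chromosome 13, 52642431 to 52643773), a near-identical copy of HNRNPA1, had the most negative estimate but few reads. Its libraries measured 6.053, 4.777 and 3.845 CPM in siNT, 6.919, 4.135 and 4.509 CPM in siTAF5, 5.412, 6.357 and 6.403 CPM with FL, and 3.741, 2.939 and 5.08 CPM with ΔE8. The log2 difference of -0.64 (SE 0.19, edgeR adjusted p = 0.0114) shrank to -0.46 without ΔE8 replicate 2 (adjusted p = 0.0872) and was not called by DESeq2.

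The 3 genes that were higher in ΔE8 than in FL were HNRNPLL, SRSF11 and HNRNPAB. HNRNPLL (ENSG00000143889, chromosome 2, 38561969 to 38603586), known for exon skipping in the leukocyte gene PTPRC, had 49.31, 47.37 and 48.93 CPM in siNT, 54.56, 51.97 and 53.51 CPM in siTAF5, 51.93, 50.26 and 51.29 CPM with FL, and 57.01, 54.51 and 58.11 CPM with ΔE8. Its ΔE8 libraries were above all FL libraries (1.10-fold, log2 0.14, SE 0.033, edgeR adjusted p = 0.00172). SRSF11 had 256.7, 253.7 and 252.2 CPM in ΔE8, above FL by 0.09 on the log2 scale (adjusted p = 0.00934). HNRNPAB (ENSG00000197451, chromosome 5, 178204533 to 178211163) had 471.5, 459.5 and 447.8 CPM in siNT, 508.5, 496.7 and 499.8 CPM in siTAF5, 483.5, 491.6 and 482 CPM with FL, and 515.2, 502.1 and 513.1 CPM with ΔE8. The difference between ΔE8 and FL was small (log2 0.07, SE 0.023, adjusted p = 0.0186) and was lost without FL replicate 1 (0.07, adjusted p = 0.0571) or FL replicate 3 (0.06, adjusted p = 0.065).

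HNRNPU, HNRNPH2, SRSF5, SRSF6, SRSF2 and SRSF9 did not differ past the threshold between ΔE8 and FL. For HNRNPU the log2 difference was -0.02 (SE 0.02, edgeR adjusted p = 0.516), for SRSF5 0.02 (SE 0.038, adjusted p = 0.737), and for SRSF6 -0.07 (SE 0.04, adjusted p = 0.164), with overlapping libraries in each. HNRNPA0, SRRM1, SRRM2 and HNRNPCL1 were not called either. Calls of HNRNPF (-0.08, to -0.06 with adjusted p = 0.0727 without ΔE8 replicate 3), HNRNPUL2 (-0.09, to -0.07 with adjusted p = 0.137 without ΔE8 replicate 3), HNRNPUL2-BSCL2 (-0.13, to -0.10 with adjusted p = 0.0657 without FL replicate 1) and SRSF7 (-0.10, to -0.07 with adjusted p = 0.0547 without ΔE8 replicate 2) hung on single libraries. Library totals also ended those of HNRNPF and HNRNPUL2.

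siTAF5 against siNT and ΔE8 against FL share no library. Of the 16 genes that were lower in siTAF5, 15 were also lower in ΔE8 than in FL, which is 93.8% of the first set and 51.7% of the 29 in the second. For all genes tested the corresponding shares were 59.6% and 75.6% (2887 genes). The shares of the first sets need their base rates beside them. Lower in ΔE8 than in FL were 69% of the 42 genes but 19.7% of all genes, and higher were 7.14% and 17.3%. Whether the 2 comparisons are linked within the 42 genes was not tested. The 15 genes were HNRNPA1, HNRNPA1P48, HNRNPA2B1, HNRNPA3, HNRNPC, HNRNPD, HNRNPDL, HNRNPF, HNRNPL, HNRNPR, HNRNPUL1, PTBP1, PTBP2, SRSF4 and SRSF12, and the remaining one was SRRM2. Of the 10 genes that were higher in siTAF5, HNRNPAB, HNRNPLL and SRSF11 were also higher in ΔE8 than in FL (30% of the first set and 100% of the second, against 53.2% and 76% for all genes). HNRNPM went opposite ways, higher in siTAF5 and lower in ΔE8 than in FL (log2 -0.18, edgeR adjusted p = 9.46e-06). That direction pair was met by 82 of all genes tested, 1.71% of those higher in siTAF5.

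**Figure D3:**
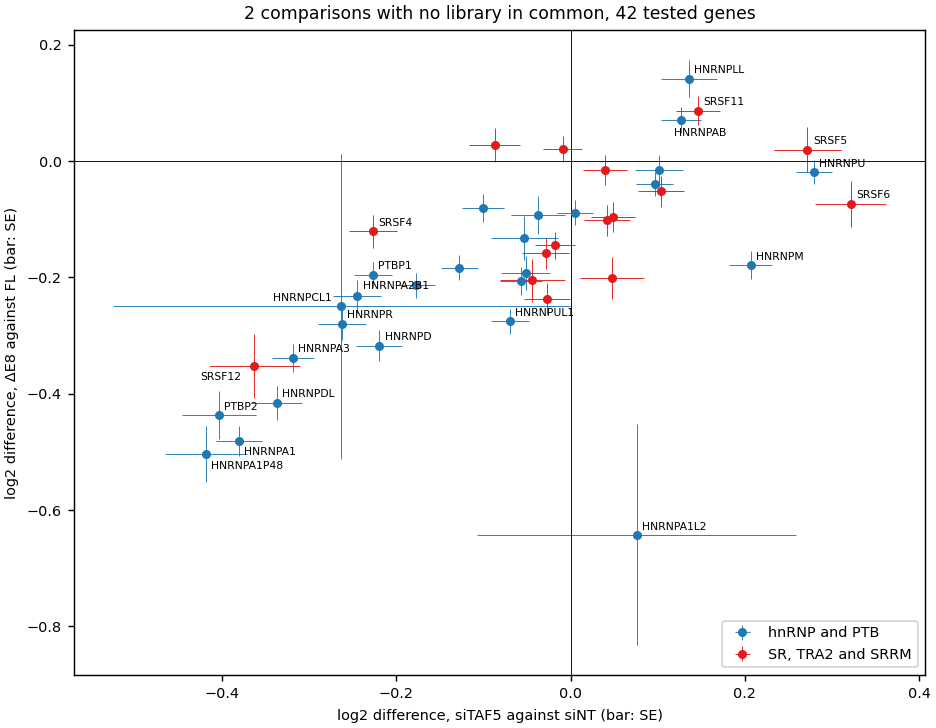
Log2 difference of siTAF5 against siNT (x axis) and of ΔE8 against FL (y axis) for the 42 tested genes, with SE as bars and 3 libraries in each of the 4 groups. HNRNPA1, PTBP2, HNRNPDL and SRSF12 lie at the lower left below -0.3 on both axes, SRSF6, HNRNPU and SRSF5 lie right of 0.2 on the x axis and near 0 on the y axis, and HNRNPA1L2 has long bars.

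Against siNT, FL was higher for 30 of the 42 genes and lower for 2 (SRSF4 and SRSF12), with a median log2 difference of 0.17. Among all genes 27.8% were higher and 26.8% lower. A ratio of 5 to 4 was reached upward by 11 genes, against 10% of all genes, and no gene was lower by that much, against 13.8%. Of the hnRNP and PTB genes 18 of 26 were higher and 0 lower (median 0.15), and of the SR, TRA2 and SRRM genes 12 of 16 were higher and 2 lower (median 0.31). HNRNPM stood 1.74-fold above siNT (log2 0.80, SE 0.025, edgeR adjusted p = 2.13e-14), SRSF6 1.72-fold (log2 0.78, SE 0.041, adjusted p = 1.07e-11) and HNRNPU by 0.58 on the log2 scale (SE 0.02, adjusted p = 1.18e-13). HNRNPA1 (0.06, adjusted p = 0.0538), HNRNPA2B1 (0.05, adjusted p = 0.151) and PTBP1 (0.04, adjusted p = 0.0959) were not called. SRSF12 (21.75, 21.49 and 21.9 CPM in FL) remained under every siNT library (log2 -0.20, adjusted p = 0.00235). Calls of HNRNPAB (0.08, and 0.06 with adjusted p = 0.073 without FL replicate 2) and SRRM2 (0.08, and 0.05 with adjusted p = 0.257 without FL replicate 2) were lost on leaving out a library, and both with upper-quartile factors.

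Against siNT, ΔE8 was higher for 23 genes (54.8%) and lower for 14 (33.3%), with a median log2 difference of 0.09. Among all genes 30.8% were higher and 31.4% lower, so the share of lower genes lay near that background. By a ratio of at least 5 to 4, 5 genes were higher (SRSF6, HNRNPM, HNRNPU, HNRNPH2 and SRSF5) and 3 lower (SRSF12, HNRNPA1P48 and HNRNPA1), against 15.9% and 19% of all genes. The median of the 42 was 0.04 with upper-quartile factors and 0.05 without the filter on low counts. Of 26 hnRNP and PTB genes 10 (38.5%) were higher and 12 (46.2%) lower (median -0.08). Of 16 SR, TRA2 and SRRM genes 13 (81.2%) were higher and 2 (12.5%) lower (median 0.15). The difference between the families was not tested here either. HNRNPA1 was 1.34-fold lower than in siNT (log2 -0.42, SE 0.026, edgeR adjusted p = 3e-11) and SRSF12 1.47-fold (log2 -0.56, SE 0.053, adjusted p = 1.55e-08), while SRSF6 was 1.63-fold higher (log2 0.71, adjusted p = 9.98e-12). Calls of HNRNPD, HNRNPH1, HNRNPUL2, HNRNPUL2-BSCL2, SRRM2 and TRA2A, all at 0.12 or less in size on the log2 scale, were lost without 1 or more libraries, with adjusted p from 0.0528 to 0.117. The highest was that of HNRNPH1 without siNT replicate 1 (0.05). Upper-quartile scaling ended the calls of HNRNPH1, HNRNPK, HNRNPUL2-BSCL2, SRRM2 and TRA2A. The siNT libraries are the same in all comparisons with siNT.

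**Figure D4:**
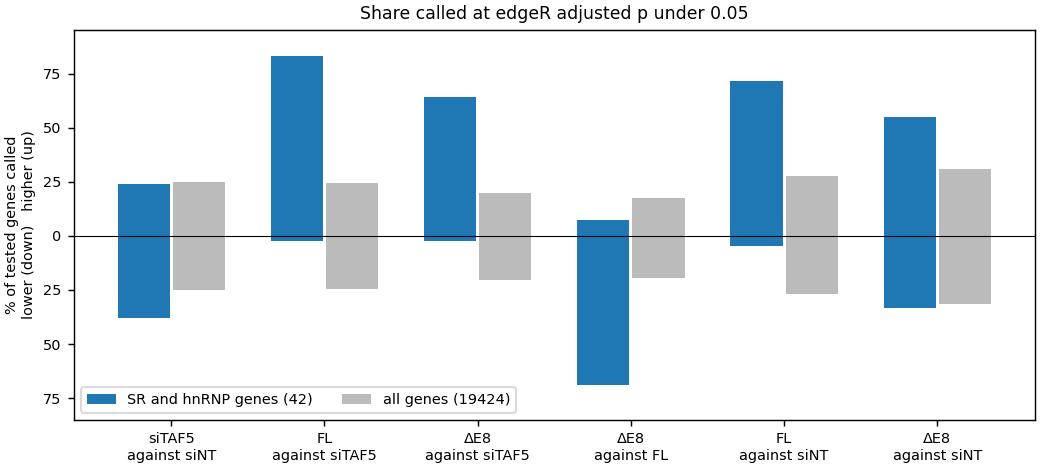
Percent of tested genes called higher (bars up) and lower (bars down) at an edgeR adjusted p under 0.05 in the 6 comparisons, for the 42 SR and hnRNP genes and for all 19424 genes. In FL against siTAF5 the bars reach 83.3% up and 2.38% down for the 42 genes against 24.4% each way for all genes, and in ΔE8 against FL 7.14% up and 69% down against 17.3% and 19.7%.

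Summed over the genes of a family, the levels followed different orders. The hnRNP and PTB genes summed to 13338 ± 140 CPM in siNT and to 12224 ± 103 CPM in siTAF5, while FL had 15135 ± 196 and ΔE8 13053 ± 256 CPM. FL was thus highest and siTAF5 lowest, with no overlap between these groups, while the ranges of siNT and ΔE8 overlapped. The SR, TRA2 and SRRM genes summed to 3700 ± 54.8 CPM in siNT and to 3705 ± 29.4 CPM in siTAF5, while FL had 4336 ± 85.5 and ΔE8 4122 ± 23.9 CPM. Here siNT and siTAF5 overlapped, and both transgene groups lay above them in every library. All 43 genes together took 1.70% of normalised counts in siNT, 1.59% in siTAF5, 1.95% in FL and 1.72% in ΔE8. HNRNPA1 and other abundant hnRNPs weigh most in these sums, which are given as a description with no test.

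**Figure D5:**
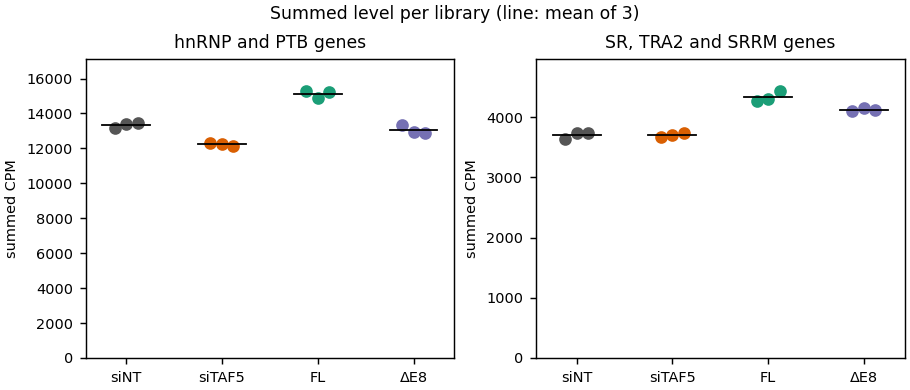
Summed CPM (y axis, from 0) per library of 27 hnRNP and PTB genes and of 16 SR, TRA2 and SRRM genes, by group, with the mean of 3 libraries as a line. The hnRNP sum is lowest in siTAF5 (mean 12224) and highest in FL (15135), and the SR sum is about equal in siNT (3700) and siTAF5 (3705).

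Genes that work with these families were taken from 5 lists written from general knowledge. Their counts are to be read against the shares of all genes called higher and lower, which were 24.7% and 25% in siTAF5 against siNT, 24.4% and 24.4% in FL against siTAF5, 20% and 20.6% in ΔE8 against siTAF5, and 17.3% and 19.7% in ΔE8 against FL. Of 14 tested hnRNP-like genes, 3 rose (21.4%, near the share of all genes) and 6 fell (42.9%) in siTAF5 against siNT, 10 rose and 1 fell in FL against siTAF5, 7 rose and 1 fell in ΔE8 against siTAF5, and 1 was higher and 8 lower in ΔE8 than in FL. The cold-inducible RBM3 had 120 ± 4.01 CPM in siNT, 89.0 ± 3.84 in siTAF5, 151 ± 3.71 in FL and 91.3 ± 0.172 in ΔE8, so that ΔE8 lay 1.65-fold below FL (log2 -0.72, edgeR adjusted p = 2.91e-12). CIRBP, its relative, ran the other way, with 165 ± 1.34 CPM in siNT, 200 ± 1.11 in siTAF5, 175 ± 1.54 in FL and 203 ± 5.11 in ΔE8. The C-tract binding PCBP2 was lower in siTAF5 than in siNT by 0.44 and lower in ΔE8 than in FL by 0.38 on the log2 scale.

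Of 11 kinases and importins of SR proteins, 3 rose and 3 fell in siTAF5 against siNT, 3 rose and 3 fell in FL against siTAF5, 3 rose and 1 fell in ΔE8 against siTAF5, and 4 were higher and 1 lower in ΔE8 than in FL, and none changed by a ratio of 5 to 4 in these 4 comparisons. In siTAF5 against siNT and FL against siTAF5 their called shares (27.3% each way) lay near those of all genes. TNPO3, the importin that carries SR proteins into the nucleus, rose in FL (log2 0.23, edgeR adjusted p = 3.95e-07) and ΔE8 (0.22, adjusted p = 2.15e-06) against siTAF5. The SR protein kinase CLK3 fell by 0.20 in siTAF5 and by a further 0.13 in FL. Among 33 other RS-domain and SR-related genes, 11 rose (33.3%) and 10 fell (30.3%) in siTAF5 against siNT, where 24.7% and 25% of all genes did. Against siTAF5, 23 rose and 3 fell in FL, and 22 rose and 3 fell in ΔE8. In ΔE8 against FL 7 were higher (21.2%) and 13 lower (39.4%). BCLAF1, a nuclear RS-domain protein, rose to 431 ± 9.66 CPM in FL and 393 ± 10.6 CPM in ΔE8 from 291 ± 5.59 CPM in siTAF5.

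Among 38 other regulators of alternative splicing, 11 rose (28.9%, near the 24.7% of all genes) and 14 fell (36.8%) in siTAF5 against siNT. Against siTAF5, 19 rose and 6 fell in FL, and 12 rose and 7 fell in ΔE8 (18.4% lower, near the 20.6% of all genes). In ΔE8 against FL 3 were higher and 16 lower. The paraspeckle proteins SFPQ and NONO rose by 0.49 and 0.37 on the log2 scale in FL against siTAF5. KHDRBS3, a STAR family splicing regulator, was lower in siTAF5 than in siNT (log2 -0.58, edgeR adjusted p = 3.62e-09) and lower in ΔE8 than in FL (-0.60, adjusted p = 1.38e-08). Nonsense-mediated decay removes the unproductive isoforms of SR and hnRNP genes. Of 10 factors of this pathway, 2 rose (20%) and 3 fell (30%) in siTAF5 against siNT, near the shares of all genes (24.7% and 25%). Against siTAF5, 8 rose and 0 fell in FL and 8 rose and 0 fell in ΔE8. In ΔE8 against FL 1 was higher and 1 lower (10% each). SMG5 rose by 0.45 in FL and 0.41 in ΔE8 against siTAF5. SMG9 had 67.0 ± 1.72 CPM in siNT, 54.5 ± 1.49 in siTAF5, 81.2 ± 2.30 in FL and 64.0 ± 2.43 in ΔE8. The part of these factors in the levels of the 42 genes was not tested.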

How the data were processed

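Estimated reads per gene were analysed in 12 libraries. The deposited table holds expected counts that were not normalized, as its values show: 46.5% of entries were not whole. Per the submitters' processing notes, cutadapt 1.18, STAR 2.7.0f, Partek 10.0.23.0531, DESeq2 and the build hg38 were used. Quantifier, annotation release and strandedness of the counting: not given in the sources used here. A gene's printed end is the table's stop minus 1.

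The design assumed counts. The estimates were rounded, which moved no library total by more than 91.27, and tested with edgeR 4.0.16 in R 4.3.3: filterByExpr (minimum count 10), trimmed mean of M values, 1 quasi-likelihood model of the 12 libraries with a mean per group and no block, two-sided tests, adjustment over 19424 genes and a threshold of 0.05. The SE is the log2 difference divided by the square root of F. The script was tested on simulated data. Totals were 41.8 to 62.5 M, and replicates differed by more than counting error (chi-square per degree of freedom 2.60 to 5.14). Exon lengths came from GENCODE release 29 and promoters from RefSeq.

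Members and lists were chosen with earlier results of these data known. Values in all libraries are given for the 3 called genes with the largest difference each way in any of the first 4 comparisons, where the average log2 CPM reached 2, and in each list the 2 with the smallest adjusted p each way were open to naming.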

Additional observations from a re-analysis of the deposited data

Results flagged for a closer look

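In 32 of the 42 tested genes the effect of FL over siTAF5 and that of ΔE8 over siTAF5 differed by a test of the difference itself, which is the direct comparison of ΔE8 with FL (edgeR quasi-likelihood, adjusted p under 0.05). They were 3 higher and 29 lower in ΔE8, where 17.3% of all genes were higher and 19.7% lower. The calls of HNRNPA1L2, HNRNPAB, HNRNPF, HNRNPUL2, HNRNPUL2-BSCL2 and SRSF7 were each lost on leaving out at least 1 library. Values are log2 differences, negative where ΔE8 was lower. The hnRNP A/B and D group held HNRNPA1L2 (-0.643), HNRNPA1P48 (-0.504), HNRNPA1 (-0.481), HNRNPDL (-0.415), HNRNPA3 (-0.338), HNRNPD (-0.317) and HNRNPA2B1 (-0.233). The PTB genes were PTBP2 (-0.437) and PTBP1 (-0.195). Further hnRNP genes were HNRNPR (-0.28), HNRNPUL1 (-0.276), HNRNPC (-0.213), HNRNPH1 (-0.206), HNRNPH3 (-0.192), HNRNPL (-0.184), HNRNPM (-0.179), HNRNPUL2-BSCL2 (-0.132), HNRNPUL2 (-0.0926), HNRNPK (-0.0884) and HNRNPF (-0.0803). SR and TRA2 genes were SRSF12 (-0.352), SRSF1 (-0.236), TRA2A (-0.205), SRSF8 (-0.201), SRSF3 (-0.158), TRA2B (-0.144), SRSF4 (-0.121), SRSF7 (-0.102) and SRSF10 (-0.0964). HNRNPAB (0.0709), SRSF11 (0.0866) and HNRNPLL (0.142) were higher in ΔE8.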

How the results depend on the processing

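Counts of called genes over the 42, other than those named here, stayed within 1.5 times the values given under DESeq2, other scalings, no filter on low counts, fits of 2 groups only and leaving out each library, and no called value of a named gene reversed. Requiring a ratio of at least 5 to 4 cut the counts (higher, lower) to 0 and 5 in siTAF5 against siNT, 15 and 0 in FL and 3 and 0 in ΔE8 against siTAF5, 0 and 7 in ΔE8 against FL, and 11 and 0 in FL and 5 and 3 in ΔE8 against siNT. Lower genes numbered 2 with upper-quartile factors and 3 with library totals in FL against siTAF5. In ΔE8 against siTAF5 they numbered 4 with each of these, 2 without the filter, and 0 to 2 on leaving out a library. With a replicate block the counts were 10 and 17, 35 and 1, 27 and 1, 3 and 30, 32 and 2, and 23 and 14 in that order of comparisons. Between groups, libraries of the same replicate number had correlations of -0.243 to 0.363 (median 0.099), with 9 of 18 pairs over 0.1. Those of different numbers had -0.367 to 0.241 (median -0.055), with 8 of 36 pairs over 0.1. Of 12 libraries, 6 were closest to one of their own number. Correlations thus leaned higher within a number, and whether the numbers mark a pairing was not tested. Where calls were lost, the cause was not tested. Counts for each family and for the 5 related lists were not recomputed. Low counts limit HNRNPA1L2, HNRNPCL1 and HNRNPCL3.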
